A study of Sus scrofa with 9 samples.

Results

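The S100 proteins are a family of small calcium-binding proteins, and 9 of 10 family genes looked up by name were found among the 21357 genes of an RNA-seq table of the abdominal part of the aorta, taken from male pigs of the small Tibetan minipig breed. The 10 names were S100A1, S100A4, S100A6, S100A8, S100A9, S100A10, S100A11, S100A12, S100A13 and S100B, of which S100B did not match a gene by name and was not analysed here. Genes that shared a name were to be chosen by the highest mean FPKM over the 9 libraries, but each of the 9 names had 1 gene. The measured values therefore did not decide which gene stood for a name. The 10 names themselves were chosen with earlier results of these data known. The table holds 9 libraries in 3 groups of 3. NC pigs ate a normal diet for 24 weeks, H8 pigs, labelled Hypercholesterolemia, ate a high-fat diet for 8 weeks, and H24 pigs, labelled Atherosclerosis, ate it for 24 weeks. In the study's methods the 24-week diet also contained added cholesterol. The study's methods describe NC and H24, for which pigs were picked at random within each group, and do not describe H8. Where H8 pigs are compared with NC or with H24 pigs, diet length and age at sampling therefore cannot be told apart. All values are from whole vessel wall, in which fewer cells of a type and less RNA per cell cannot be told apart.

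S100 proteins bind calcium through a pair of EF-hand motifs, mostly as dimers, and the calcium-bound form opens a surface that grips partner proteins. S100A8, S100A9 and S100A12 are made in bulk by neutrophils and by monocytes, and when released they act as danger signals on receptors such as TLR4 and AGER (the receptor RAGE). S100A4, S100A6, S100A10, S100A11 and S100A13 work largely inside cells, on the cytoskeleton, on annexins at membranes or in unconventional secretion, and S100A1 is best known for calcium cycling in heart and muscle. In arterial disease the family is mostly discussed for the inflammatory members and for S100A4, which is also found in migrating mesenchymal cells.

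FPKM, the deposited unit of level, scales a gene's fragments by the length of its transcript and by the depth of the library. The order of different genes by FPKM therefore depends on the transcript lengths used. CPM scales the counts by depth only, and the order of the S100 genes by mean CPM differed, as given below. The estimated counts behind the FPKM values summed to between 44094263 and 75787978 per library. H24 replicate 3 stood apart: its correlation with the other H24 libraries across genes was 0.891 and 0.918, while all other pairs of libraries within a group had at least 0.962. In this library the 6 listed smooth muscle markers summed to 1704 FPKM, compared with 7805 and 11609 in H24 replicates 1 and 2, and the 7 macrophage markers summed to 1554 FPKM, compared with 241 and 144. In NC, smooth muscle markers summed to between 11370 and 13452 FPKM and macrophage markers to between 20.9 and 27.6, and in H8 macrophage markers summed to between 25.4 and 147. The edgeR change of each gene named in a comparison with H24 is therefore given with and without replicate 3. By the rule explained below, the markers that rose in H24/NC were 7 of 7 for macrophages, 4 of 5 for T cells, 2 of 4 for neutrophils, 2 of 4 for fibroblasts, 1 of 5 for adipocytes and 1 of 4 for Schwann cells. None rose or fell in this comparison among 6 smooth muscle, 5 endothelial, 2 B cell, 2 striated muscle and 2 keratinocyte markers. Without H24 replicate 3 the counts in H24/NC were 7 of 7 for macrophages, 2 of 4 for T cells, 1 of 3 for neutrophils, 2 of 4 for fibroblasts, 1 of 5 for adipocytes and 0 of 4 for Schwann cells. In H24/H8, 7 of 7 macrophage, 5 of 5 T cell, 4 of 5 adipocyte, 2 of 4 neutrophil, 1 of 4 fibroblast and 1 of 1 B cell markers rose and 1 of 2 striated muscle markers fell, and without H24 replicate 3 the macrophage count was 1 of 7, the T cell count 3 of 5 and the neutrophil count 1 of 3. In H8/NC, 3 of 4 adipocyte markers and 1 of 3 neutrophil markers fell, and 4 of 7 macrophage, 1 of 3 neutrophil, 1 of 2 T cell, 1 of 4 fibroblast and 1 of 2 striated muscle markers rose. How far these cell types account for the S100 values was not tested.

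Between 24 weeks of high-fat diet and the normal diet, S100A4, S100A9, S100A10 and S100A12 rose, and S100A4 was the only one of these 4 that also passed the rule without H24 replicate 3. A gene was said to rise or fall when its log2 fold change was beyond 1 with an unadjusted p under 0.05 in edgeR's quasi-likelihood test on the counts, which are the study's thresholds. All 9 genes were tested in H24/NC, 4 rose and none fell, compared with 9.95% of 14828 genes that rose and 1.52% that fell. S100A9 and S100A12 reached the minimum mean level of 0.1 FPKM for the test only through H24, the group in which they were high, and of the 7 genes that reached it in NC alone 2 rose, S100A4 and S100A10. The values of H24 lay above all NC values without overlap for the same 4 genes, as for 12.8% of all genes. None of the 9 passed a Benjamini-Hochberg adjusted p of 0.05 over all genes in edgeR, in which 0% of genes passed, and the lowest adjusted p was 0.126. Here and below, the adjusted threshold is an adjusted p under 0.05 with a log2 fold change beyond 1 in size, in either direction. DESeq2 put 3 of the 8 genes it gave a p past the adjusted threshold (6.5% of all genes), S100A4, S100A9 and S100A10. With limma on log2(FPKM + 0.1), 1 of 9 passed it (0.0674%), S100A4. The median log2 fold change of the 9 genes was 1.80, compared with 0.01 over all genes, and without H24 replicate 3 it was 0.64 over the 8 genes tested, compared with -0.02. Without H24 replicate 3, 8 genes were tested and 2 rose, S100A1 and S100A4, compared with 6.49% of all genes.

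After 8 weeks of the diet no S100 gene passed the rule. Of the 6 genes tested in H8/NC none rose or fell, compared with 5.11% of all genes that rose and 2.27% that fell, since S100A8, S100A9 and S100A12 were below the minimum mean FPKM of 0.1. S100A10 and S100A13 lay above NC without overlap, 2 of 6 genes compared with 6.91% of all genes, and these 2 had an unadjusted p under 0.05 with changes smaller than the fold threshold. No gene of the 6 passed the adjusted threshold in edgeR (0.0279% of all genes did), in DESeq2 (4.31%) or in limma (0.181%). In H24/H8, 4 of 9 genes rose, S100A4, S100A8, S100A9 and S100A12, and none fell, compared with 7.22% and 3.05% of all genes. S100A8, S100A9 and S100A12 reached the minimum level only through H24 replicate 3, and of the 6 genes that reached it in H8 alone 1 rose, S100A4. S100A4 and S100A9 did not overlap between H24 and H8, against 15.5% of all genes. No S100 gene passed the adjusted threshold in edgeR (0.0135% of all genes) or in limma (0.00676%), and 2 of 8 passed it in DESeq2 (4.45%), S100A4 and S100A9. In H24/H8 without H24 replicate 3, 6 genes were tested and 2 rose, S100A1 and S100A4, compared with 3.75% of all genes. H24/NC and H24/H8 share the H24 libraries and H24/NC and H8/NC share the NC libraries, so the comparisons are not independent of each other.

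**Figure D1:**
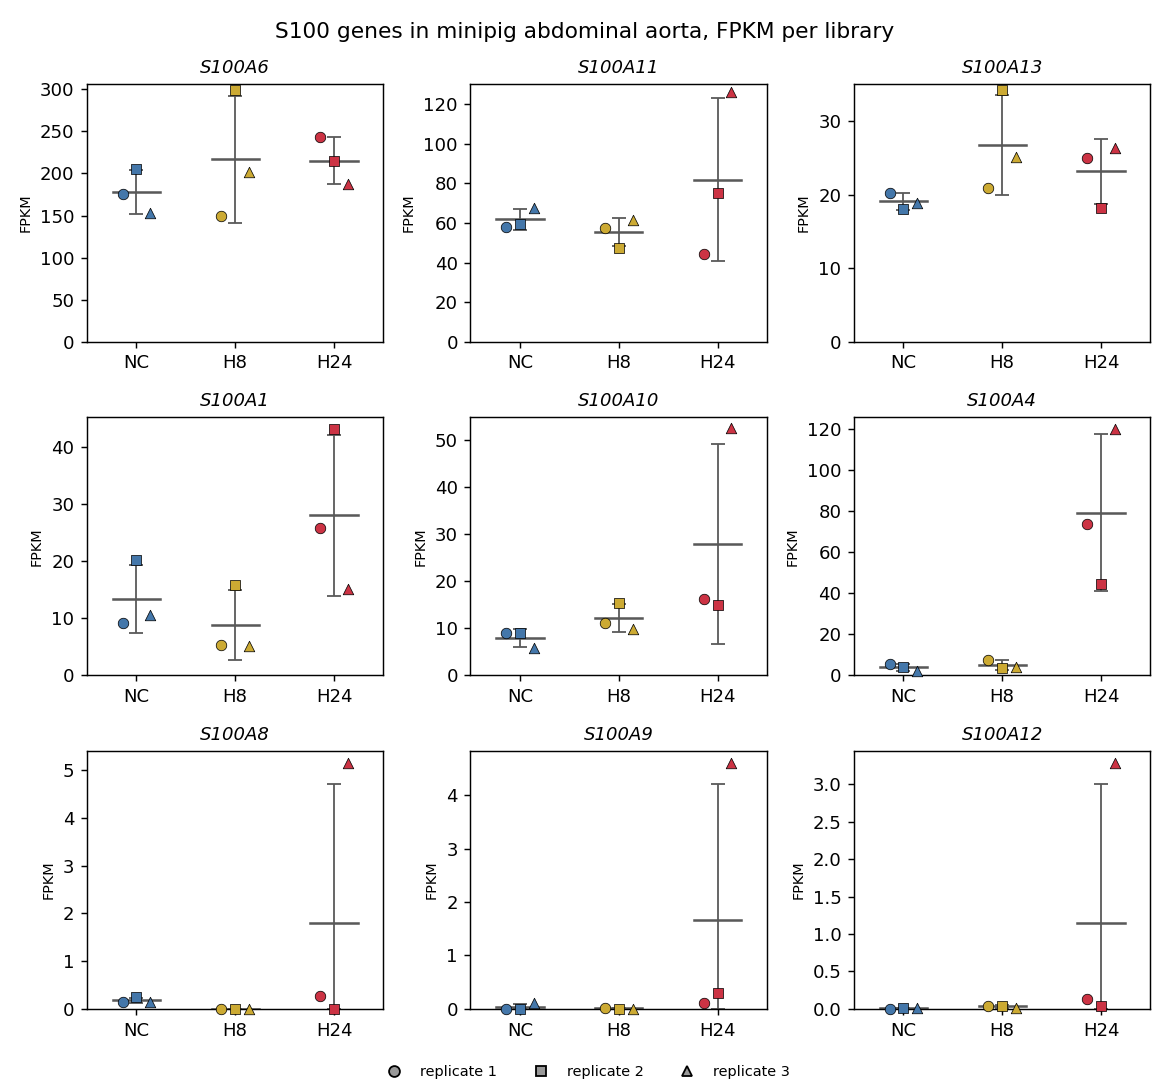
FPKM (vertical axis, from 0, its own scale for each gene) of the 9 S100 genes in the 3 libraries of NC, H8 and H24. Points are libraries with a shape for each replicate number, horizontal lines are means and bars are SD, cut at 0. S100A4 is at least 44.4 FPKM in each H24 library and at most 7.61 elsewhere, while S100A8, S100A9 and S100A12 are above 1 FPKM in H24 replicate 3 alone.

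S100A4, a partner of non-muscle myosin that is linked to cell motility, had the clearest pattern of the family. Its levels were 5.70, 4.01 and 2.34 FPKM in NC replicates 1 to 3, 7.61, 3.40 and 4.13 FPKM in H8, and 73.5, 44.4 and 119.7 FPKM in H24. All 3 H24 libraries were therefore above all 6 others, while NC and H8 overlapped. The means were 4.02 ± 1.68 FPKM (SD, n = 3) in NC, 5.05 ± 2.25 in H8 and 79.2 ± 38.0 in H24. The mean of H24 was 19.7 times that of NC, and 14.7 times without H24 replicate 3. In edgeR the log2 fold change was 4.27 (SE 0.51, adjusted p = 0.126) in H24/NC and 3.78 (SE 0.47, adjusted p = 0.215) in H24/H8. H8/NC gave 0.45 (SE 0.43, adjusted p = 0.668), about as large as its standard error. With replicate 3 of H24 left out, S100A4 had a log2 fold change of 3.84 (SE 0.41, edgeR adjusted p = 0.00609) in H24/NC and 3.37 (SE 0.39, adjusted p = 0.119) in H24/H8. Leaving out any single library kept the rise in both comparisons. Within H8, S100A4 was highest in replicate 1, at 7.61 FPKM.

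S100A10, the light chain that joins annexin A2 in a complex binding plasminogen and placing membrane proteins, had a higher mean in H8 than in NC and a higher mean again in H24, and only H24/NC passed the rule. Its levels were 9.08, 8.90 and 5.73 FPKM in NC, 11.1, 15.4 and 9.87 FPKM in H8, and 16.2, 15.0 and 52.4 FPKM in H24. All H8 and all H24 libraries were above the highest NC library, and H8 and H24 overlapped, with H24 replicate 3 at 3.37 times the mean of the other H24 libraries. The log2 fold change was 1.80 in H24/NC (SE 0.54, edgeR adjusted p = 0.220), 0.77 in H8/NC (SE 0.28, adjusted p = 0.279) and 0.98 in H24/H8 (SE 0.52, adjusted p = 0.428). When H24 replicate 3 was left out the H24/NC change was 0.95 (SE 0.26, adjusted p = 0.166), below the fold threshold and no longer a call, and H24/H8 was 0.17. ANXA2, its partner, was at 128 ± 15.8 FPKM in NC, 127 ± 25.5 in H8 and 180 ± 51.6 in H24 (SD, n = 3), with a log2 fold change of 0.46 in H24/NC that did not pass (adjusted p = 0.533) and was 0.20 without H24 replicate 3.

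The ratio of S100A10 to ANXA2 shows how the 2 chains of the complex compared as mRNA. It was 0.0715, 0.0615 and 0.0505 in NC, 0.107, 0.0998 and 0.0799 in H8, and 0.105, 0.103 and 0.219 in H24. Every library of both diet groups had a higher ratio than every NC library, and H24 replicates 1 and 2 were within the range of H8. The means were 0.0612 ± 0.0105, 0.0955 ± 0.0140 and 0.142 ± 0.0666 (SD). The 2-sided exact permutation test gave p = 0.1 for H24/NC and for H8/NC, the smallest that 3 libraries against 3 allow, and p = 0.3 for H24/H8. For 2 other pairs of a member and its partner the ratio had a lower mean in H24 than in NC, with overlap between the groups. S100A11 to ANXA1 was 2.61 ± 0.379 in NC, 1.52 ± 0.655 in H8 and 1.69 ± 0.787 in H24 (SD, n = 3), with an exact permutation p = 0.2 for each diet group against NC. S100A6 to CACYBP was 7.97 ± 2.53 in NC, 6.53 ± 2.99 in H8 and 6.53 ± 3.45 in H24 (SD, n = 3), with an exact permutation p = 0.6 for each. The p-values of these 9 ratio comparisons were not adjusted for their number.

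**Figure D2:**
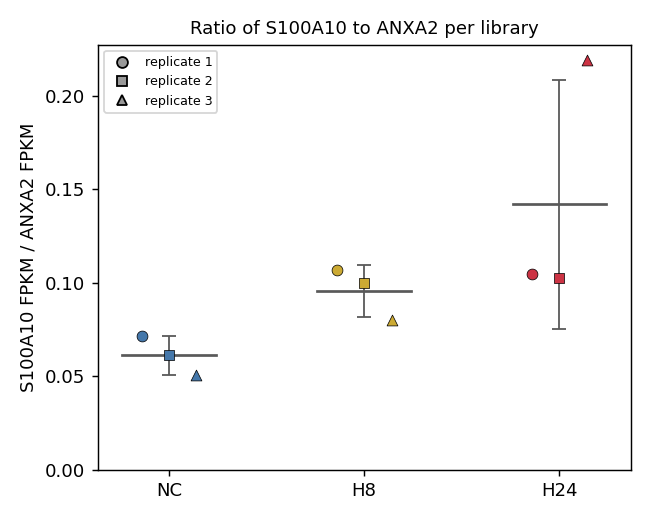
Ratio of S100A10 FPKM to ANXA2 FPKM (vertical axis, no unit) in each library of NC, H8 and H24, with the mean (line) and SD (bar) of each group. The 3 NC ratios, from 0.0505 to 0.0715, are below the 6 ratios of the diet groups, which start at 0.0799.

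S100A6, S100A11 and S100A13, the members with the highest mean FPKM in NC, passed the rule in none of the 3 comparisons. S100A6 (calcyclin), which binds the ubiquitin ligase adaptor CACYBP, was at 176, 206 and 154 FPKM in NC, 150.0, 299 and 201 FPKM in H8, and 244, 215 and 188 FPKM in H24. The 3 groups overlapped, and the log2 fold changes were 0.25 in H24/NC (SE 0.23), 0.44 in H8/NC (SE 0.30) and -0.22 in H24/H8 (SE 0.35), the last with a sign that turned in some settings. Without H24 replicate 3 they were 0.33 in H24/NC and -0.12 in H24/H8. S100A11, a partner of annexin A1, was at 58.0, 59.7 and 67.6 FPKM in NC, 57.4, 47.5 and 61.2 FPKM in H8, and 44.5, 74.9 and 126 FPKM in H24. H24 held both the lowest and the highest of these 9 values, and its log2 fold change against NC of 0.39 (SE 0.39, adjusted p = 0.704) became -0.06 (SE 0.28) without H24 replicate 3. S100A13, which takes part in the release of FGF1 and IL1A without a signal peptide, was at 20.3, 18.0 and 18.9 FPKM in NC, 20.9, 34.3 and 25.1 FPKM in H8, and 25.0, 18.1 and 26.4 FPKM in H24. Its H8 libraries lay just above all NC libraries, with a log2 fold change of 0.65 (SE 0.25, edgeR adjusted p = 0.293) that was under the fold threshold, and H24 overlapped both groups (0.26 in H24/NC, and 0.15 without H24 replicate 3).

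S100A1, a regulator of calcium handling in muscle cells, was higher in H24 by amounts that passed the rule in some fits only. It was at 9.26, 20.2 and 10.6 FPKM in NC, 5.30, 15.9 and 5.22 FPKM in H8, and 25.8, 43.3 and 15.2 FPKM in H24. Replicate 2 was the highest library in each group, and H24 replicate 3 was below NC replicate 2 and H8 replicate 2, so the groups overlapped. The log2 fold change was 1.04 in H24/NC (SE 0.48, edgeR adjusted p = 0.405), 1.46 in H24/H8 (SE 0.62, adjusted p = 0.365) and -0.43 in H8/NC (SE 0.56, adjusted p = 0.762). With H24 replicate 3 left out, in which S100A1 was at 0.439 times the mean of the other H24 libraries, it was 1.34 in H24/NC (SE 0.42, adjusted p = 0.241) and 1.77 in H24/H8 (SE 0.60, adjusted p = 0.404). That library was the only one of H24 within the range of NC and H8, so leaving it out removed the overlap by itself. The H24/NC change was also a call when NC replicate 2 was left out (1.50, adjusted p = 0.426), and the H24/H8 change when H8 replicate 2 was (2.31, adjusted p = 0.663). In H8/NC the change was a fall of 1.29 on the log2 scale without H8 replicate 2 (adjusted p = 0.300) and was 0.03 without NC replicate 2. By position S100A1 shares 11390 bp with CHTOP on the same strand and 398 bp with S100A13 on the other strand. Strand cannot tell apart reads of the stretch shared with CHTOP. Reads of the stretch shared with S100A13 cannot be told apart where the counting does not use strand. CHTOP was lower in H24 than in NC without overlap (edgeR log2 fold change -0.53, SE 0.19, adjusted p = 0.281) and did not pass the fold threshold. Without H24 replicate 3 its change was -0.58. Both values are opposite in sign to S100A1, and the effect of shared reads on the S100A1 values was not tested.

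S100A8 and S100A9, the chains of calprotectin, and S100A12 (calgranulin C) were near the limit of detection in 8 of the 9 libraries. S100A8 had 4, 8 and 4 counts in NC, 0 in each H8 library, and 8, 0 and 133 in H24. S100A9 had 0, 0 and 16 counts in NC, 4, 0 and 0 in H8, and 17, 32 and 654 in H24. S100A12 had 0, 5 and 4 counts in NC, 13, 14 and 5 in H8, and 39, 9 and 892 in H24. For each of these 3 genes, H24 replicate 3 held most of the signal, with 86.4% of the FPKM summed over the 9 libraries for S100A8, 89.5% for S100A9 and 91.9% for S100A12. There the levels were 5.15, 4.60 and 3.28 FPKM, and the highest level in any other library was 0.271 FPKM for S100A8, 0.304 for S100A9 and 0.128 for S100A12.

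In H24/NC the log2 fold changes were 5.56 for S100A9 (SE 2.07, edgeR adjusted p = 0.310), 6.82 for S100A12 (SE 1.97, adjusted p = 0.207) and 3.28 for S100A8 (SE 1.71, adjusted p = 0.457). The H24 values of S100A9 and S100A12 did not overlap with NC, though by few counts in H24 replicates 1 and 2, and those of S100A8 did. Without H24 replicate 3, S100A9 had a log2 fold change of 2.56 (SE 1.63, adjusted p = 0.680), S100A8 of -0.30 (SE 1.34, adjusted p = 0.972), and S100A12 was below the minimum level and not tested. The S100A9 call was also lost without NC replicate 1 (4.98) and without NC replicate 2 (4.97), and S100A8 was called without H24 replicate 2, where it is at 0 (3.86). In H24/H8, S100A9 (7.35, SE 1.99, adjusted p = 0.336) and S100A12 (4.81, SE 1.65, adjusted p = 0.341) rose. S100A8 was at least 18.1-fold higher in H24 than in H8 (edgeR adjusted p = 0.341), a bound on mean CPM that takes 3 counts in each H8 library as the limit for a count of 0 and covers counting error only. Without H24 replicate 3 this bound was 1.44-fold. The calls of S100A8 and S100A12 in H24/H8 were lost when any one of H8 replicates 1, 2 or 3 was left out (fitted log2 fold changes from 4.42 to 5.15 for S100A12), since the unadjusted p was no longer under 0.05. When H24 replicate 3 was left out, all 3 genes fell below the minimum level. In H8/NC these genes were not tested in edgeR's filtered fit, and S100A8 was at 0 counts in H8 against 4 to 8 in NC.

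The summed levels of the neutrophil markers and of the macrophage markers were also highest in the library with the most S100A8, S100A9 and S100A12. Of 7 listed neutrophil markers 6 were matched, and their sum was between 0.732 and 1.05 FPKM in NC, between 3.11 and 4.55 in H8, and 8.52, 5.28 and 49.3 in H24. CSF3R, the G-CSF receptor, which macrophages also express, made up 46.8 of the 49.3 FPKM. MPO, a granule enzyme of neutrophils, was at 0.626 FPKM in H24 replicate 3 and listed at 0 in the other 8 libraries, and ELANE was at 0.333 FPKM there, below its 0.473 to 0.603 FPKM in NC. CXCR2, a chemokine receptor of neutrophils, was at 1.49 FPKM there and at most 0.798 elsewhere, and rose in H24/NC (log2 fold change 3.21, SE 1.11, adjusted p = 0.279) but not without H24 replicate 3 (1.60). MMP8, a neutrophil collagenase, was listed at 0 there and was at most 0.132 FPKM in any library, and LTF was at most 0.0660 FPKM in any library. Their part in the S100 values was not tested.

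**Figure D3:**
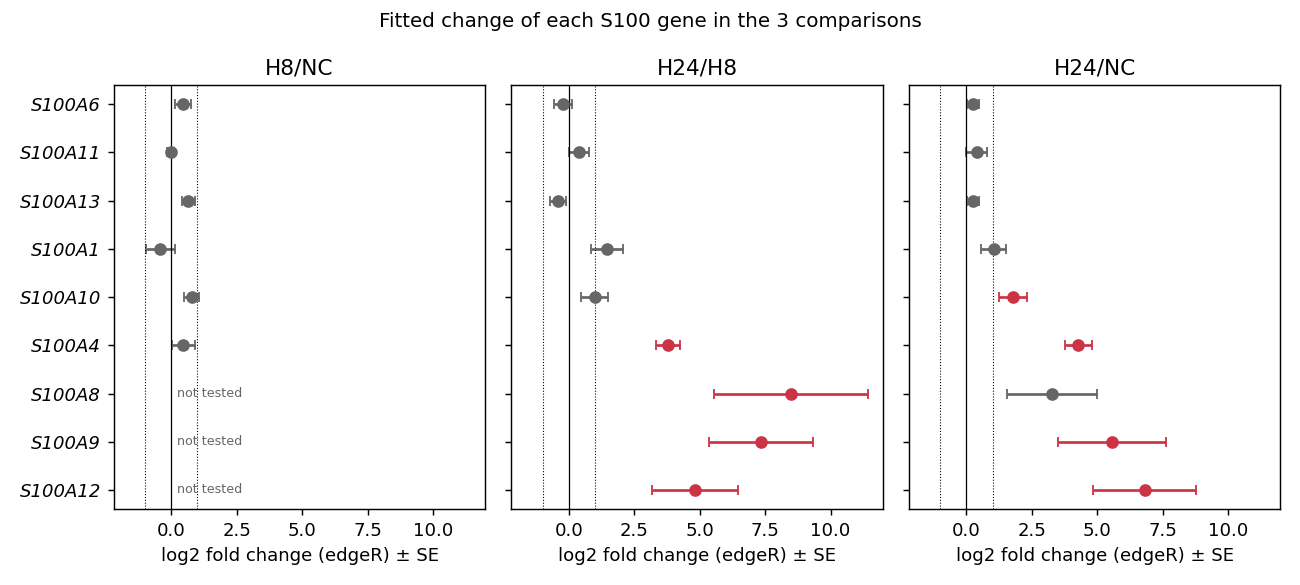
Log2 fold change (horizontal axis, edgeR) of the 9 S100 genes in H8/NC, H24/H8 and H24/NC, with bars of 1 SE and dotted lines at a change of 1 in size. Red points passed the rule; S100A8 in H24/H8 is a fitted value against a group at 0 counts and no measured size. No gene passed in H8/NC and 4 passed in each of the other comparisons.

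**Figure D4:**
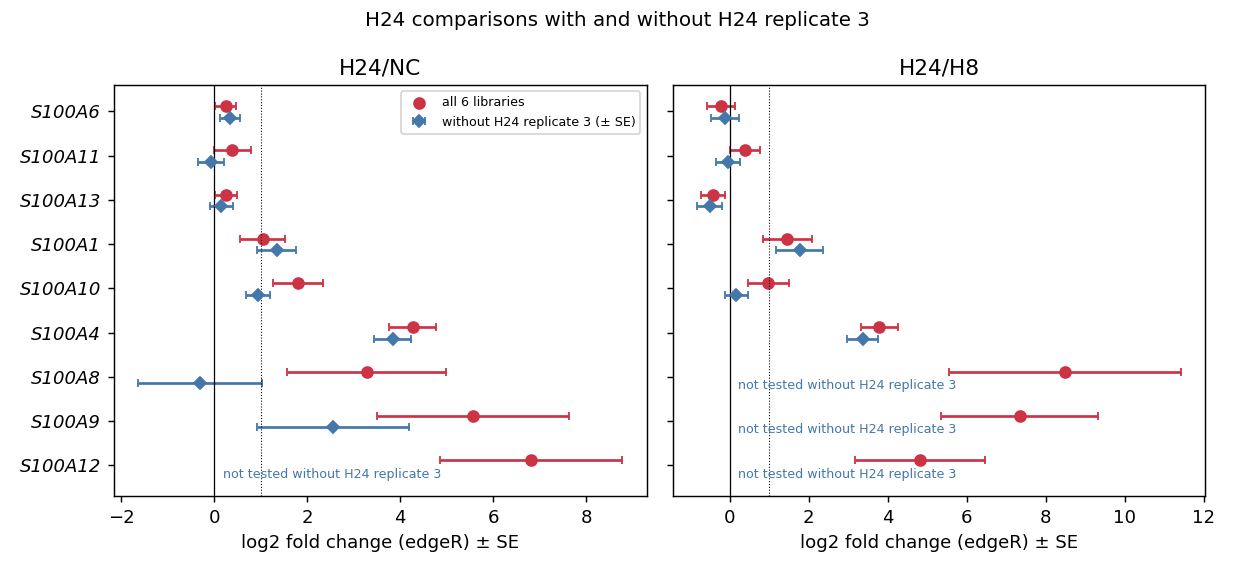
Log2 fold change (horizontal axis, edgeR, bars of 1 SE) of the 9 S100 genes with all 6 libraries (red circles) and without H24 replicate 3 (blue diamonds), with a dotted line at 1. S100A4 moved from 4.27 to 3.84 in H24/NC, S100A10 from 1.80 to 0.95 and S100A8 from 3.28 to -0.30.

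The order of the S100 genes by FPKM changed at 24 weeks through S100A4. In NC the order of mean FPKM was S100A6 (178 ± 26.1), S100A11 (61.8 ± 5.13), S100A13 (19.1 ± 1.13), S100A1 (13.4 ± 5.97), S100A10 (7.90 ± 1.89), S100A4 (4.02 ± 1.68), S100A8 (0.178 ± 0.0596), S100A9 and S100A12 (SD, n = 3). Neighbours in this order did not overlap, except S100A13 with S100A1 and S100A9 with S100A12. In H8, S100A10 with S100A1, S100A1 with S100A4, and S100A12, S100A9 and S100A8 overlapped with their neighbours. In H24, S100A4 stood at rank 3 after S100A6 (215 ± 28.0 FPKM) and S100A11 (81.8 ± 41.2), up from rank 6 in NC, and it overlapped with S100A11. S100A1, S100A10 and S100A13 followed with means of 28.1, 27.9 and 23.2 FPKM, which their spread does not separate. The order by mean CPM differed, with S100A11 above S100A6 in NC (252 against 218) and in H24 (334 against 264). S100A10 came next by CPM, at 32.6 in NC and 115 in H24. S100A4 was at 3.91 CPM in NC and 76.9 CPM in H24, below S100A10 in both. For S100A8, S100A9 and S100A12 the order in H24 was reversed. Their mean levels there were 1.81, 1.67 and 1.15 FPKM, but 0.766, 3.90 and 5.13 CPM.

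As a share of the summed FPKM of the 9 genes, S100A6 made up between 59.3% and 64.9% in NC, between 59.4% and 72.0% in H8 and 56.8%, 52.3% and 34.7% in H24. S100A4 made up at most 2.05% in NC and 3.01% in H8, and 17.1%, 10.8% and 22.1% in H24. The sum itself was 278, 317 and 259 FPKM in NC, 252, 415 and 307 FPKM in H8, and 429, 411 and 541 FPKM in H24. S100A8, S100A9 and S100A12 together made up 2.41% in H24 replicate 3 and at most 0.118% in any other library.

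**Figure D5:**
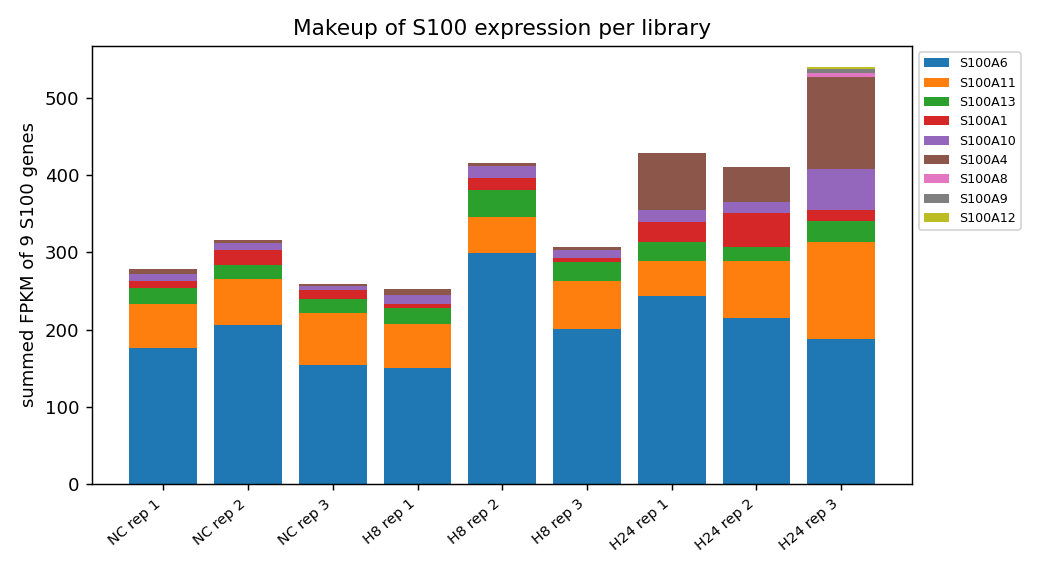
Summed FPKM of the 9 S100 genes (vertical axis, from 0) in each of the 9 libraries, with a colour for each gene. S100A6 is the largest part of every bar, and S100A4 is a visible part, from 10.8% to 22.1%, in the 3 H24 bars.

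All 9 genes lie on chromosome 4 of Sscrofa11.1, where the table places 15 genes described as S100 calcium-binding proteins between 95993938 and 97275019. S100A4 (96088028 to 96091249, plus strand) has S100A3 1200 bp before it and S100A5 1890 bp after it, and S100A6 (96098189 to 96100128, plus strand) follows S100A5 after 1168 bp. S100A8 (96209659 to 96210602, plus strand), S100A12 (96225329 to 96229939, plus strand) and S100A9 (96235327 to 96239285, minus strand) are neighbours. S100A1 (95993938 to 96012402, minus strand) overlaps the start of S100A13 (96012005 to 96025118, plus strand), and S100A11 (97233428 to 97241989, plus strand) lies 19209 bp before S100A10 (97261199 to 97275019, plus strand). No relation of position to response was tested.

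Of 9 other S100 genes looked up, 8 were found and 4 had enough reads to be tested. S100A14 rose in H24/NC (log2 fold change 1.12, SE 0.38, edgeR adjusted p = 0.270), from 2.17 ± 0.307 to 4.78 ± 1.51 FPKM (SD, n = 3), and was no longer a call without H24 replicate 3 (0.83). S100A3, next to S100A4, was at 0.223, 1.41 and 0.135 FPKM in NC, 0.509, 0.688 and 0.545 FPKM in H8, and 2.04, 2.44 and 1.87 FPKM in H24. The 3 H24 libraries were above all others, and the rise passed in H24/H8 (1.66, SE 0.57, edgeR adjusted p = 0.341, and 1.75 without H24 replicate 3) but not in H24/NC (1.77, SE 0.95, adjusted p = 0.471, and 1.85 without H24 replicate 3). S100A2 and S100A16 passed in no comparison. S100A5, S100G and S100Z were at most 0.0764 FPKM in any library and S100A7 was listed at 0 in all 9.

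The genes of known S100 partners were counted from lists by role. CYBB, a gene of the phagocyte NADPH oxidase, the enzyme that calprotectin helps to activate, was listed but not matched. Of the matched genes of this oxidase, 5 of 5 rose in H24/NC. Their log2 fold changes had a median of 4.34, and among them were NCF4 (4.03, edgeR adjusted p = 0.132, and 2.49 without H24 replicate 3) and NCF1 (4.34, adjusted p = 0.136, and 2.56). In H8/NC 3 of the 5 rose and in H24/H8 5 of 5. Of all genes, 9.95% rose in H24/NC, 5.11% in H8/NC and 7.22% in H24/H8. All 5 rose in H24/NC without H24 replicate 3, and 3 of 5 in H24/H8, compared with 6.49% and 3.75% of all genes. This oxidase is a phagocyte complex, and macrophage markers rose in the same comparisons. How far macrophage content accounts for the oxidase values was not tested.

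Among 7 matched receptor genes 1 rose and none fell in H24/NC, compared with 9.95% and 1.52% of all genes. The gene that rose was TLR4, a receptor of S100A8 and S100A9, at 0.579, 2.35 and 1.59 FPKM in NC, 4.57, 2.44 and 1.60 FPKM in H8, and 10.8, 3.82 and 34.5 FPKM in H24. Its H24 libraries were above all NC libraries (log2 fold change 3.40, SE 0.89, edgeR adjusted p = 0.168, and 2.22 without H24 replicate 3). It also passed in H24/H8 (2.30, SE 0.79, adjusted p = 0.341), with overlap, but not without H24 replicate 3 (1.16, SE 0.54). AGER, the gene of RAGE, was at most 0.429 FPKM in any library, with a log2 fold change of -0.33 in H24/NC (SE 0.97, adjusted p = 0.912) and -0.34 without H24 replicate 3. BSG, another receptor of S100A9, was between 157 and 205 FPKM in all 9 libraries (0.04 in H24/NC, SE 0.22, and 0.05 without H24 replicate 3). CD36, which binds the S100A8 and S100A9 complex, did not pass in H24/NC (1.91, SE 0.83, adjusted p = 0.373, and 0.64 without H24 replicate 3). MCAM (-0.95, SE 0.61, and -0.48 without H24 replicate 3) and NPTN (-0.45, SE 0.24, and -0.30) were lower in H24 than in NC without overlap and did not pass. LY96 overlapped and did not pass (0.54, SE 0.56, and -0.15 without H24 replicate 3).

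Of 6 annexin and membrane partners, 1 rose in H24/NC, ANXA1, the partner of S100A11 (1.10, SE 0.40, adjusted p = 0.299), and it was not a call without H24 replicate 3 (0.58, SE 0.25). Of all genes, 9.95% rose in H24/NC. None of the 6 annexin and membrane partners rose or fell in H8/NC or H24/H8. Of the plasminogen system, which the S100A10 complex binds, PLAUR (1.89, SE 0.39, adjusted p = 0.132) and PLAU (1.86, SE 0.59, adjusted p = 0.250) rose in H24/NC. Without H24 replicate 3, PLAUR still passed (1.46) and PLAU did not (0.97). In H8/NC PLAUR (1.73, SE 0.47) and PLAU (2.18, SE 0.81) rose as well, and in H24/H8 neither passed the rule. Of 8 tested intracellular partners, among them CACYBP, MYH9 and FGF1, none rose or fell in any comparison.

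The genes most like each S100 gene across the 9 libraries were read from Pearson's r of log2(FPKM + 0.1) over 9749 named genes with a mean of at least 1 FPKM. For S100A4 these were LTC4S (0.981), VCAN (0.978) and CHI3L1 (0.976), and VCAN was at 7.61, 5.44 and 3.51 FPKM in NC, 9.32, 7.76 and 5.26 FPKM in H8, and 32.7, 26.4 and 35.2 FPKM in H24. In all 3 the H24 libraries were above all others, as for S100A4, and NC and H8 overlapped for LTC4S and VCAN but not for CHI3L1, which was at most 2.86 FPKM in NC and at least 3.48 in H8. For S100A10 they were MANBA (0.988), CAPG (0.987) and PTPN18 (0.983), and CAPG was at 26.4 to 43.5 FPKM in NC, 47.2 to 58.2 in H8 and 76.3, 62.3 and 268 in H24. For S100A1 they were CD320 (0.953), SLCO2A1 (0.952) and FAM167B (0.932), which were all highest in H24 replicate 2. For S100A9 the closest was F13A1 (0.992), at 72.5 FPKM in H24 replicate 3 and at most 4.86 elsewhere, for S100A12 it was LAMTOR1 (0.990), and for S100A8 it was AVL9 (0.982). The closest genes to S100A11, S100A13 and S100A6 were SLC27A4 (0.964), SLC41A2 (0.953) and NIPAL4 (0.881). The libraries are the same points in each of these correlations, and H24 replicate 3 alone can set a high r where a gene is high there only.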

How the data were processed

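RNA from the end of the abdominal aorta was sequenced as 9 paired-end poly(A) libraries with an RNA integrity limit. The authors mapped the reads with HISAT2 2.0 to Sscrofa11.1 and assembled transcripts with StringTie 1.3.0. The processing notes in the labels also name Bowtie 0.12.2 and a mouse build, which do not match the pig identifiers of the table, and the extraction protocol speaks of adipose where the tissue labels give the aorta. The deposited table gives FPKM per gene and library, normalized by the authors for length and depth, and estimated counts, not normalized. How the estimated counts were derived, the annotation release and whether strand was used are not given in the sources used here. No column of values was left without a sample.

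The counts, which are whole numbers, were tested with edgeR 4.0.16 (quasi-likelihood, dispersion trend, TMM) in R 4.3.3, per comparison on its 6 libraries, for genes whose FPKM averaged 0.1 or more over them. P-values are 2-sided and adjusted by Benjamini-Hochberg over all genes tested. The script was checked on simulated data. Values from DESeq2 1.42.0 and limma 3.58.1, another scaling, filters, all 9 libraries in one fit, the replicate number as a block and each library left out are given as alternatives. P-values measure the spread between these libraries, since the labels do not say that they are separate pigs, which the methods give for NC and H24 only. The replicate numbers are shared across groups, but same-numbered libraries deviated together with correlations of only -0.06 to 0.102, so they were not used as pairs. The members, partner lists and marker lists were chosen with earlier results of these data known. Named genes are the members, at most 3 called genes of a partner list by smallest p with the direct partners of members, and the 3 genes most like each member, and some listed genes are not reported here. Of 101 listed genes 95 were matched, 7 of them by their NCBI gene number. A count of 3 was taken as the limit for a count of 0, between 0.0396 and 0.0680 CPM per library. Blood, histology and protein measurements were not analysed here.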

Additional observations from a re-analysis of the deposited data

How the results depend on the processing

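S100A4 stayed up in H24/NC and H24/H8 in every alternative with the unadjusted rule, with an adjusted p in H24/NC from 3.62e-14 in DESeq2 to 0.465 without NC replicate 3. The 4 genes that rose in H24/NC became 2 (S100A4 and S100A10) with a minimum mean FPKM of 1, which leaves fewer genes tested, and with limma on log2(FPKM + 0.1) or log2(FPKM + 1), 0 with the adjusted threshold, and between 2 and 5 with each library left out in turn. The 4 genes that rose in H24/H8 became 2 (S100A1 and S100A4) with a minimum of 1 FPKM and with limma on log2(FPKM + 1), 0 with the adjusted threshold, and between 2 and 4 with each library left out. In H8/NC none fell, 1 (S100A8) fell with no filter, and between 0 and 2 with each library left out. S100A6 in H24/H8 turned from -0.22 to 0.00919 with library size only and to 0.0408 and 0.0404 with limma at a pseudocount of 0.1 and 1, and ranged from -0.44 to 0.18 with libraries left out. With libraries left out, the log2 fold change ranged from -0.30 to 3.86 for S100A8 and -0.0615 to 0.70 for S100A11 in H24/NC, from -1.29 to 0.0334 for S100A1 and -0.0822 to 0.0354 for S100A11 in H8/NC, and from -0.0399 to 0.69 for S100A11 in H24/H8. The cause of these turns was not tested. With the replicate number as a block, S100A1 also rose in H24/NC (1.01, adjusted p = 0.349) and H24/H8 (1.57, adjusted p = 0.443), and S100A12 was no call in H24/H8 (2.39, adjusted p = 0.640), which made 5 and 4 genes that rose. DESeq2 gave no p for S100A12, and called S100A1 in H24/NC and H24/H8 in its place. Of 372 alternative values of single genes, 324 kept direction and side of the threshold, 20 lost and 18 gained a call, and 10 changed sign. The ratio of S100A8 to S100A9 was not run, since S100A9 was at 0 counts in 4 libraries. Depth limits S100A8, S100A9 and S100A12, whose counts outside H24 replicate 3 were at most 39.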
